A study of Mus musculus with 3 samples.

Results

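Kappa light chain B cells are the B cells in which transcripts of the kappa constant region gene outnumbered those of the lambda constant region genes. They were picked from 3 single-cell RNA-Seq libraries by a rule on unique molecular identifiers (UMIs), each of which counts 1 captured RNA molecule. A cell entered with over 200 and under 6000 genes, less than 10% of UMIs on mitochondrial genes and fewer than 25000 UMIs in all. A B cell needed 2 or more UMIs on Cd79a, Cd79b, Ms4a1, Ebf1 and Bank1 together, 0 on Cd3d, Cd3e and Cd3g, less than 0.5% of its UMIs on S100a8, S100a9 and Lyz2, and less than 1% on Jchain. A B cell was a kappa cell where Igkc held more UMIs than Iglc1, Iglc2 and Iglc3 combined, and a lambda cell where they held more than Igkc. Of 21029 cells that entered, 3069 were kappa B cells and 335 were lambda B cells. T cells of the same libraries, 2529 in all, needed 2 or more UMIs on the Cd3 genes and 0 on the 5 B cell genes, and serve below as cells that shared each library and its handling.

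The study asked what B cells of the recipient do in a lung injured by ischemia and reperfusion. One library came from naive left lungs of C57BL/6J mice. The others came from syngeneic left lung transplants, with a B6 (CD45.2) lung placed into a B6 (CD45.1) mouse, a cold ischemia of 60 minutes (4 °C) and a warm ischemia of 45 minutes (28 °C), harvested after 2 hours or 3 days of reperfusion. Each library held the cells of 2 pooled mice, sorted for CD45.1, the form of CD45 on recipient cells. The labels give the same sort for the naive mice, although these hold no recipient cells, so how the naive cells were gated is not settled here. No library carried a deletion or a drug treatment.

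A B cell builds its antigen receptor from a heavy chain and a light chain, and the light chain is either kappa or lambda. In the mouse the kappa locus is usually rearranged first and most B cells use it, and a cell that has made a working light chain normally keeps to that one. The receptor signals through CD79A and CD79B, and naive B cells carry it as IgM and IgD. Signals through the receptor, or through stress, switch on immediate-early genes within minutes to hours without new protein.

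The cells were chosen by 4 constant region exons, so the first 100 bases of each are shown here on GRCm38, read 5′ to 3′ along the gene's strand from GENCODE vM21 transcripts, starting for Iglc2 at the second base of the exon. Capitals in Iglc1 and Iglc3 mark bases that differ from Iglc2, 24 and 6 of the 100.
Igkc, chr6:70726435-70726534, + strand: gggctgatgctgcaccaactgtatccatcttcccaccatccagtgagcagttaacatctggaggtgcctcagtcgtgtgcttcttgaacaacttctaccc
Iglc1, chr16:19061972-19062071, - strand: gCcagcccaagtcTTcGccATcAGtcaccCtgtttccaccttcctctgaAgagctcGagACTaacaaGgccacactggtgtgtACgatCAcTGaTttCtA
Iglc2, chr16:19198753-19198852, - strand: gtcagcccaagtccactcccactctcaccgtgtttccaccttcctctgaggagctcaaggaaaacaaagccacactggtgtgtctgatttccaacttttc
Iglc3, chr16:19065582-19065681, - strand: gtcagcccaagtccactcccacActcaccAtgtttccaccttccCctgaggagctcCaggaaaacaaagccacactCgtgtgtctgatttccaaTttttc
Over whole transcripts Iglc2 and Iglc3 were 94.3% identical, Iglc1 and Iglc2 68.3%, and Igkc and Iglc2 52.3%. Reads of Iglc2 and Iglc3 can therefore be split between these copies, which does not matter for their sum, and Igkc was far from all 3 in sequence.

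The 2-hour library stood apart from the others in depth. Kappa B cells numbered 457 of 2422 cells in the naive library, 845 of 10283 at 2 hours and 1767 of 8324 at 3 days, and held 2964664, 780816 and 10102480 UMIs. Their median was 6318 UMIs and 2329 genes per cell in the naive library, 774 UMIs and 420 genes at 2 hours, and 5033 UMIs and 1870 genes at 3 days. The shares of entered cells were 18.9% (95% Clopper-Pearson interval 17.3% to 20.5%), 8.22% (7.69% to 8.77%) and 21.2% (20.4% to 22.1%), and both the sort and the depth bear on them. T cells showed the same gap, with medians of 9842.5, 1216 and 8151 UMIs. The naive file was written by Cell Ranger 7.1.0 and both transplant files by 6.0.0, per their headers. The sources used here do not say whether reads in introns were counted. Libraries shared 8, 1 and 23 barcodes pairwise, and 0 kappa cells were among them. Scrublet called 3, 24 and 29 kappa cells doublets, 0.656%, 2.84% and 1.64%.

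With 1 library per condition no test between conditions was possible. A difference between conditions cannot be told apart from a difference in mice, handling or, against the naive library, counting software. UMIs were summed over the kappa cells of a library and expressed per 1000000 UMIs of those cells (CPM). A gene was called past 2-fold where the log2 ratio of CPM + 10 was at least 1 in size and the exact 95% interval of the CPM ratio, given in brackets below, lay on 1 side of 0. For genes of low count that interval lies farther from 0 than the ratio with 10 CPM added. These intervals cover counting error only. A count of 0 allows up to 1.01 CPM in naive lungs, 3.84 CPM after 2 hours and 0.297 CPM after 3 days, so the 2-hour library gives the least precise values.

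The marker genes fitted the name. Igkc was 5955 CPM in naive lungs, 5414 CPM after 2 hours and 5734 CPM after 3 days in kappa cells, which the rule had required to be high. In T cells it was 12.8, 8.71 and 33.0 CPM. Cd79a, 1 of the signalling chains of the receptor, was 2067, 1793 and 1922 CPM, and its partner Cd79b 754, 829 and 835 CPM. Ms4a1, which encodes CD20, was 526, 464 and 726 CPM. Cd79a, Cd79b and Ms4a1 were in the rule, and T cells were at 0 for them by construction. Pax5, the factor that keeps B cells committed, was not in the rule: it was 801, 214 and 448 CPM, against 1.57, 1.16 and 1.39 CPM. Jchain, which joins secreted antibody, stayed at 0.337, 11.5 and 2.28 CPM under the limit of the rule.

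**Figure D1:**
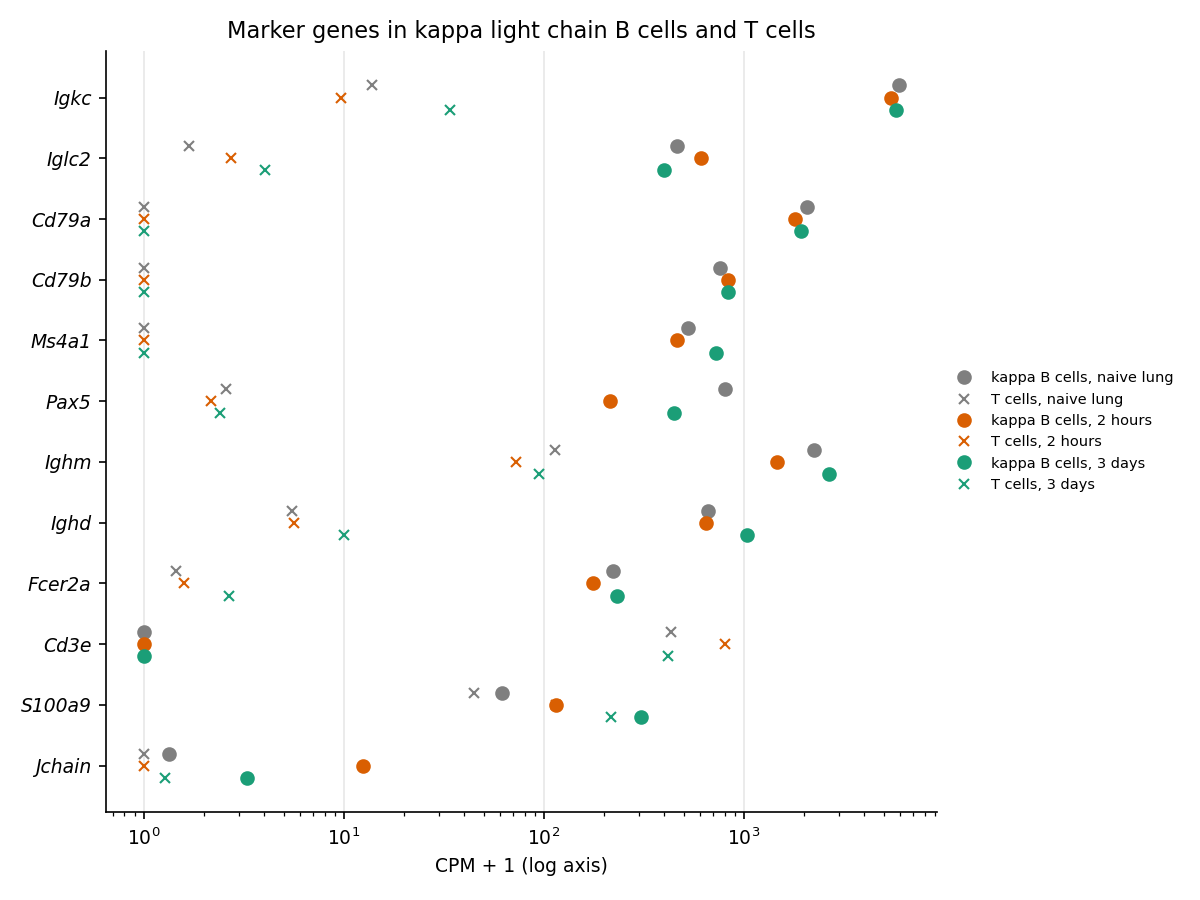
Marker genes in kappa light chain B cells (circles) and T cells (crosses) of each library, as CPM + 1 on a log axis, with 1 colour per library. Igkc, Cd79a, Cd79b and Ms4a1 chose the cells. Pax5, which did not, lies 1 or more decades above T cells in all 3 libraries, whereas Cd3e is at 0 in kappa cells by the rule.

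Single cells near the limits were mostly in the 2-hour library. Exactly 2 UMIs of the 5 B cell genes were found in 1, 211 and 11 kappa cells, 0.219%, 25.0% and 0.623%, and the median was 67, 4 and 28 UMIs. Just outside this limit 14, 166 and 56 cells had 1 such UMI and met the other conditions. Exactly 1 Igkc UMI decided 13, 102 and 13 kappa cells, where the median was 34, 4 and 28. The lambda genes held between 40% and 50% of light chain UMIs in 10, 48 and 38 kappa cells, and between 50% and 60% in 4, 33 and 5 lambda cells on the other side. No UMI of Cd79a or Cd79b was seen in 12, 69 and 6 kappa cells, 2.63%, 8.17% and 0.340%.

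The protein on these cells was a measure the rule had not used. Both transplant files also counted 277 antibody tags, and the tag for CD45R, the B220 form of CD45 on B cells, gave at least 2 UMIs in 833 of 845 kappa cells at 2 hours, 98.6% (97.5% to 99.3%), and in 1736 of 1767 at 3 days, 98.2% (97.5% to 98.8%). Among T cells the shares were 1.74% (1.10% to 2.63%) and 2.30% (1.39% to 3.57%). The median kappa cell had 18 and 17 CD45R UMIs, and the median T cell 0 and 0, so the distributions hardly overlapped. CD45R was found also in the cells near the limits of the 2-hour library. At least 2 UMIs were seen in 208 of the 211 cells with only 2 B cell UMIs, in 101 of the 102 with 1 Igkc UMI and in 68 of the 69 without Cd79a and Cd79b. At 3 days it was 3 of 11, 6 of 13 and 5 of 6, a handful of cells. The median CD45R count was 0 in the 11 and 1 in the 13. The 6 without Cd79a and Cd79b held 16411 CPM of monocyte and macrophage markers, against 1363 CPM in the other kappa cells. So this tag does not bear out all of the 3-day cells near the limits. The naive file held no antibody counts, so its 457 cells have no such check.

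**Figure D2:**
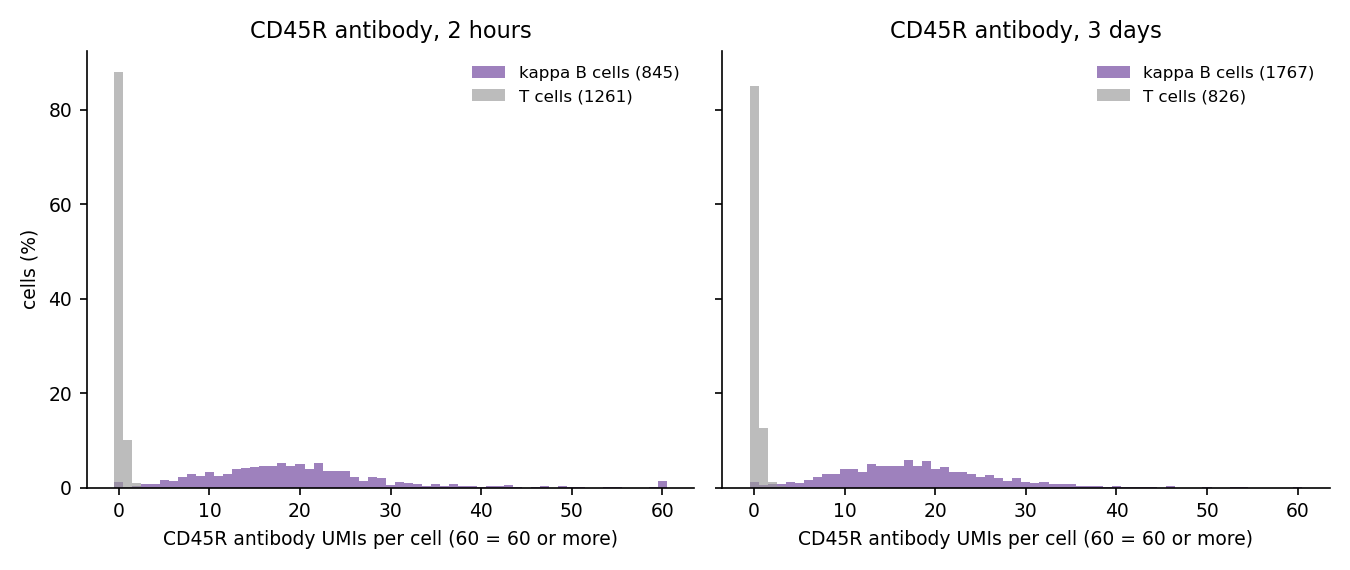
CD45R antibody UMIs per cell, as a percent of cells, in kappa B cells (purple) and T cells (grey) at 2 hours (left) and 3 days (right), with 60 or more drawn at 60. T cells pile up at 0 and 1, and kappa cells spread around medians of 18 and 17.

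Few other antibody tags gave signal. At least 1 UMI per kappa cell on average was reached by 4 of 277 tags at 2 hours and 5 at 3 days, and 201 and 159 tags had 0 UMIs. ITGB7, a chain of gut homing integrin, averaged 14.4 and 30.5 UMIs per kappa cell, and 20.6 and 32.5 per T cell. CD44, an adhesion receptor, averaged 6.07 and 6.95 UMIs per kappa cell and 6.72 and 10.2 per T cell. CD49f, the integrin chain ITGA6, averaged 2.37 and 14.3 UMIs per kappa cell and 8.13 and 21.2 per T cell. All 3 were lower on kappa cells than on T cells at both times. The galectin Mac2 (LGALS3) went the other way, with 0.478 and 7.95 UMIs per kappa cell and 0.174 and 2.23 per T cell. BCMA, a receptor for survival signals encoded by Tnfrsf17, gave 443 and 322 UMIs on kappa cells and 2 and 2 on T cells, whereas Tnfrsf17 RNA was 0.337, 0 and 0.495 CPM. The isotype control rat IgG1 lambda averaged 0.698 and 0.382 UMIs per kappa cell, more than BCMA, so the tags below it have no clear floor. At 2 hours the control averaged 0.401 UMIs per T cell, and Mac2 on kappa cells lay below the 0.698 of the control. The tags carry human names, and CD20 (MS4A1) gave 0 UMIs.

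The share of kappa cells among B cells called kappa or lambda differed between libraries. Left out were 46, 185 and 29 B cells in which both counts were equal, of which 42, 105 and 21 had no light chain UMI at all. The naive library held 457 kappa and 49 lambda cells, a kappa share of 90.3% (87.4% to 92.7%). At 2 hours there were 845 and 190, or 81.6% (79.1% to 84.0%), and at 3 days 1767 and 96, or 94.8% (93.7% to 95.8%). The intervals do not overlap, but they cover counting error only and the depth moves the share. Thinning every B cell to 500 UMIs before the light chain was called, an alternative chosen after seeing the data, gave 85.5%, 79.7% and 91.9%. With the leading chain at 10 times the other and at least 5 UMIs the shares were 89.3%, 92.3% and 94.7%, and the 2-hour library was no longer the lowest, with 143 kappa and 12 lambda cells left. In these terms the order of the 3 libraries is not settled.

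Lambda transcripts were found in kappa cells of every library. Iglc2 was 461 CPM in naive lungs, 609.6 CPM after 2 hours and 399 CPM after 3 days in kappa cells. It was seen in 63.9%, 33.6% and 62.9% of kappa cells, and in 0.679%, 0.238% and 2.54% of T cells of the same libraries. Among 500 UMIs drawn per cell the shares were 14.9% (11.7% to 18.5%), 22.4% (19.6% to 25.4%) and 16.8% (15.1% to 18.6%) of kappa cells and 0.226%, 0.0794% and 0.242% of T cells. Iglc3 was 298, 280.5 and 229.7 CPM, and Iglc1 166, 119 and 110.2 CPM. Thus Iglc2 was far commoner in kappa cells than in T cells at equal depth. No lambda UMI was seen in 108, 466 and 375 kappa cells, 23.6%, 55.1% and 21.2%, a share that the low depth of the 2-hour library bears on. In the reverse direction, Igkc was 1165, 1567 and 557 CPM in lambda cells. Genes of light chain rearrangement were close to absent: Rag1 had 4 UMIs in the naive library and 0 at 2 hours and 3 days, and Igll1 had 0 in each. Vpreb3, which stays on in mature B cells, was 165, 131 and 119 CPM.

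Kappa variable genes were detected too rarely to describe a repertoire. The labels name both a 3′ and a 5′ kit, which read different ends of a transcript, while the methods of the study name a 3′ kit. Which one made each library is not settled here, so the counts of variable genes are not comparable with certainty between libraries. The 160 Igkv genes in the files held 223, 145 and 269 UMIs, or 1.26, 3.43 and 0.464 per 100 Igkc UMIs, in 129, 117 and 236 kappa cells. T cells had 0, 2 and 0 of these UMIs. A single leading Igkv gene could be named in 113, 116 and 230 cells, spread over 40, 39 and 65 genes. Igkv1-117 led in 14 naive cells, 12.4% (6.94% to 19.9%), in 11 at 2 hours, 9.48% (4.83% to 16.3%), and in 20 at 3 days, 8.70% (5.39% to 13.1%). Igkv12-46 led in 7, 7 and 15 cells. Igkv1-110, whose transcript is 96.8% identical to that of Igkv1-117, led in 9 naive cells and 12 at 2 hours. No gene led in more than 12.4% of cells in any library, and the intervals of Igkv1-117 overlapped.

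IgM or IgD transcripts outnumbered those of switched classes in nearly all kappa cells with a heavy chain UMI, which were 454, 658 and 1762 cells, or 99.3%, 77.9% and 99.7%. IgM or IgD led in 451, 654 and 1753 of them, 99.3% (98.1% to 99.9%), 99.4% (98.5% to 99.8%) and 99.5% (99.0% to 99.8%), and IgG, IgA or IgE in 3, 4 and 8. Ighm was 2227 CPM in naive lungs, 1460.0 CPM after 2 hours and 2649 CPM after 3 days, against 112, 71.4 and 93.0 CPM in T cells. Among 500 UMIs per cell it was seen in 56.9%, 49.3% and 67.1% of kappa cells and in 4.75%, 3.02% and 3.03% of T cells. Without thinning the T cell shares were 54.1%, 8.17% and 47.0%, so Ighm UMIs were found in T cells too. Ighd, the heavy chain of IgD, was 662, 648 and 1037 CPM and in T cells 4.50, 4.64 and 9.01 CPM, with a log2 ratio of 3 days to naive of 0.64 (0.58 to 0.72). The next shares are unthinned, and the low depth of the 2-hour library bears on them. IgD exceeded IgM in 9.91% (7.32% to 13.0%), 21.6% (18.5% to 24.9%) and 11.6% (10.2% to 13.2%) of cells. A switched UMI of any kind was seen in 13, 6 and 90 of these cells, 2.86% (1.53% to 4.85%), 0.912% (0.335% to 1.97%) and 5.11% (4.13% to 6.24%). Some were concentrated: of 86 Igha UMIs at 2 hours 80 lay in 1 cell, and the 93 Ighg1 UMIs at 3 days lay in 4 cells. By contrast the 93 Igha UMIs at 3 days were spread over 69 kappa cells, 3.90%, beside 2.66% of T cells.

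Between libraries, 7888 genes were compared, those averaging 10 CPM or more over the 3 libraries. At 2 hours 392 genes (4.97%) were higher than in naive kappa cells past 2-fold and 1711 (21.7%) were lower. The median log2 ratio of all 7888 genes was -0.29 in kappa cells and -0.19 in T cells, so a gene near that value lay with the bulk of genes. Scaling by the median ratio over genes, which sets that median to -0.01, raised the higher share of the calls from 18.6% to 39.8%. At 3 days 127 genes (1.61%) were higher than in naive kappa cells and 997 (12.6%) lower, with a median of -0.03. From 2 hours to 3 days 511 (6.48%) were higher and 278 (3.52%) lower, with a median of 0.21, and the higher share of the calls, 64.8%, became 33.5% under that scaling. These shares are the background for the counts in gene groups that follow. The 3 comparisons share libraries and are not independent.

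Some abundant transcripts set the scale of these values. Gm42418, which overlaps ribosomal RNA, was 11711 CPM in naive lungs, 73446 CPM after 2 hours and 61174 CPM after 3 days, and in T cells 11900.1, 60042 and 60448 CPM. Malat1, a nuclear RNA, was 19731, 19181 and 28964 CPM. Actb, the cytoskeletal actin, was 3557, 15831 and 4530.4 CPM, and so highest at 2 hours. Tmsb4x, which binds actin, was 6686, 2255 and 8166 CPM, and so lowest there. Ribosomal protein genes took 17.4%, 23.2% and 23.2% of kappa UMIs and mitochondrial genes 3.90%, 4.75% and 5.44%.

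Immediate-early and AP-1 genes formed the group with the most members past 2-fold at 2 hours. Of 19 compared, 14 were higher than in naive cells and 0 lower, against 4.97% and 21.7% of all genes. The group summed to 5879 CPM in naive lungs, 17360.0 CPM after 2 hours and 6331 CPM after 3 days. Its log2 ratio of 2 hours to naive was 1.56 (1.53 to 1.59) in kappa cells and 1.46 in T cells, so the difference was of like size in both. At 3 days 1 member, Jun, was higher than in naive cells past 2-fold. Fos, the AP-1 subunit, was 66.8 CPM in naive lungs, 766 CPM after 2 hours and 103 CPM after 3 days. Jun, its partner, was 43.5, 619.9 and 107 CPM, with a log2 ratio of 2 hours to naive of 3.56 (3.55 to 4.12) and 2.11 in T cells. Both were highest in the 2-hour library.

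Other members did not all follow. Btg1, an antiproliferative gene, was 1111, 5788 and 1114 CPM, a log2 ratio of 2.37 (2.32 to 2.45). Klf2, the factor that keeps lymphocytes quiescent and recirculating, was 772, 2903 and 813 CPM, a log2 ratio of 1.90 (1.83 to 1.99). Rhob, a small GTPase, was 49.2, 175 and 60.8 CPM and in T cells 25.4, 32.5 and 24.4 CPM. These 3 were highest at 2 hours. By contrast Btg2, a relative of Btg1, was 483, 491 and 491 CPM and level across the libraries. Per cell, among 500 UMIs drawn from each, the median kappa cell held 2, 7 and 3 UMIs of the group, and from the 10th to the 90th percentile 1 to 5, 3 to 19 and 1 to 6. The T cell medians were 2, 5 and 2. The 10th percentile at 2 hours thus lay above the naive median.

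**Figure D3:**
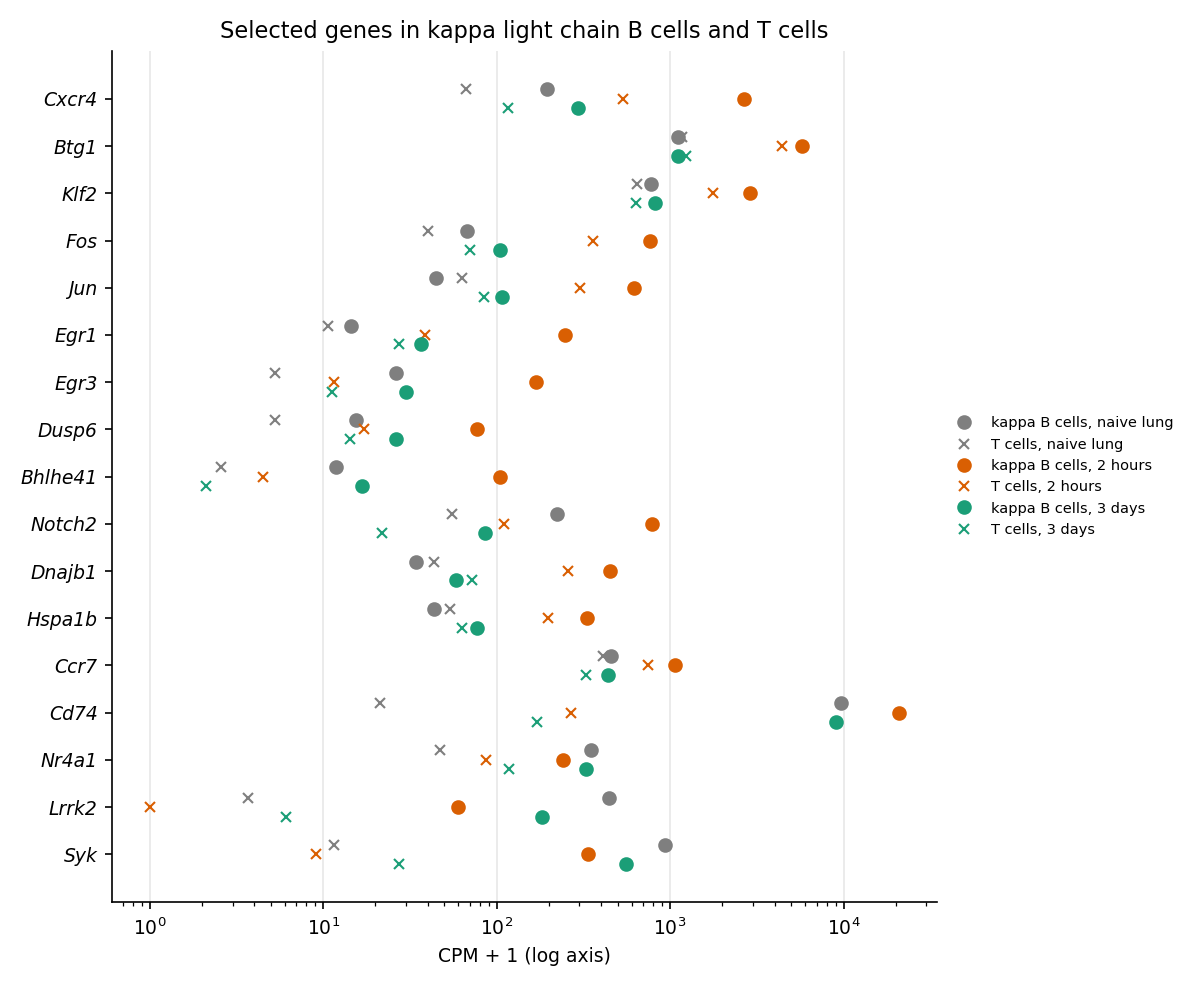
Selected genes in kappa B cells (circles) and T cells (crosses) of each library, as CPM + 1 on a log axis, with 1 colour per library. Cxcr4, Fos, Jun and Egr1 are highest at 2 hours, Cxcr4 at 2663 CPM, while Syk and Lrrk2 are highest in the naive library.

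Cxcr4, the receptor for the chemokine CXCL12, had the largest log2 ratio of 2 hours to naive among genes whose CPM + 1 at 2 hours was at least 4 times as high in kappa cells as in T cells. It was 193 CPM in naive lungs, 2663 CPM after 2 hours and 293 CPM after 3 days, and in T cells 65.9, 536 and 115 CPM. The log2 ratio of CPM + 10 was 3.72 (3.65 to 3.93) for 2 hours to naive and -3.14 (-3.27 to -3.10) for 3 days to 2 hours. Among 500 UMIs per cell it was seen in 7.22%, 52.7% and 12.7% of kappa cells, and in 2.26%, 16.4% and 4.48% of T cells. Without thinning the kappa shares were 51.4%, 65.3% and 63.8%.

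The other genes taken by the same rule at 2 hours include targets of receptor and mitogen signals. Egr1 was 13.5, 247 and 35.6 CPM, a log2 ratio of 3.45 (3.70 to 4.72), and 1.28 in T cells. Egr3, its relative, was 25.3, 168 and 29.0 CPM, a log2 ratio of 2.33 and 0.52 in T cells. Dusp6, the phosphatase that restrains ERK, was 14.5, 75.6 and 25.4 CPM, a log2 ratio of 1.80. These 3 were highest at 2 hours, and at 3 days none was past 2-fold from naive by the rule above. The ratio of Egr1 at 3 days to naive, 0.96 (0.93 to 1.91), was just under that limit, and the interval of Dusp6, 0.34 to 1.31, also lay above 0. Bhlhe41, a repressor known from B1 cells, was 10.8, 104 and 15.7 CPM and at most 3.48 CPM in T cells. Hist1h2bc, a histone gene, was 67.8, 264 and 175 CPM and still past 2-fold at 3 days, at 1.25 (1.16 to 1.59). Gm43305 and Gm42031, of no function known here, had log2 ratios of 2.66 and 2.30.

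Promoters are shown for Cxcr4 and Klf2, which were among the genes high at 2 hours, and for Dusp1, a member of the immediate-early group. Each is the 250 bases before the start of the gene from RefSeq, GRCm38.p6, in the gene's direction. Capitals mark GCGGGGGCG, the motif of EGR factors, in Cxcr4 (on the opposite strand, 94 bases before the start) and Klf2 (199 bases before), and TGACGTCA, the cyclic AMP response element, in Dusp1 (143 bases before).
Cxcr4, chr1:128592300-128592549, - strand: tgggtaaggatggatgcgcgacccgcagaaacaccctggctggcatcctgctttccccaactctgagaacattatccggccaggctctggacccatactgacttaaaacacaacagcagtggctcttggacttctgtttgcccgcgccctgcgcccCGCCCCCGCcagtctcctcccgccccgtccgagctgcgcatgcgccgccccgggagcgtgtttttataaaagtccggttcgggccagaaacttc
Klf2, chr8:72318812-72319061, + strand: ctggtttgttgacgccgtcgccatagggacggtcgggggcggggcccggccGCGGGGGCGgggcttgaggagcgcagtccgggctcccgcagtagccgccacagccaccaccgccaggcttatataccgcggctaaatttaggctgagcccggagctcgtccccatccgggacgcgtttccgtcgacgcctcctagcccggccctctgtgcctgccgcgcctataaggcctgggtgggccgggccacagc
Dusp1, chr17:26508473-26508722, - strand: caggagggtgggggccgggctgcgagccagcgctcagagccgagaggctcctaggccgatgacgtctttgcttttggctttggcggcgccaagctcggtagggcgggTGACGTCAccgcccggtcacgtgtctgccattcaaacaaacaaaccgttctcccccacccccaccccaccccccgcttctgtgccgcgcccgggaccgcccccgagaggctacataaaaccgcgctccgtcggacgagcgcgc
Over both strands of 32851 promoters, GCGGGGGCG was in 2.57%, TGACGTCA in 1.55%, the AP-1 motif TGANTCA in 6.75% and GGGCGG in 32.7%. Of the 20 immediate-early genes 18 had a promoter in the table, of which 5 held GCGGGGGCG (Dusp2, Fosb, Klf2, Klf4 and Zfp36), 3 TGACGTCA (Btg2, Dusp1 and Ppp1r15a), 1 TGANTCA (Zfp36l1) and 14 GGGCGG. GCGGGGGCG overlaps GGGCGG in both promoters shown. A match is a description of letters and does not show that a factor bound.

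Genes induced through the B cell receptor did not differ in 1 direction. Of 16 compared, 6 were higher at 2 hours past 2-fold and 2 lower, against 4.97% and 21.7% of all genes. The group's median log2 ratio was 0.61, against 0.64 in T cells and -0.29 over all genes in kappa cells. Its sum was 2031, 1859.6 and 1487 CPM. Nr4a1, the orphan receptor that reports receptor signalling, was 348 CPM in naive lungs, 241 CPM after 2 hours and 327 CPM after 3 days, a log2 ratio of 2 hours to naive of -0.51 (-0.76 to -0.31), while in T cells it was 45.9, 85.9 and 117 CPM. Nr4a2, its relative, was 38.8, 10.2 and 51.9 CPM, and so lower at 2 hours past 2-fold. Myc, which drives growth, was 23.3, 90.9 and 38.2 CPM. Cd69, an early activation marker, was 66.8, 164 and 89.1 CPM. Both were higher past 2-fold, with log2 ratios of 1.60 and 1.18 in kappa cells and 1.77 and 1.22 in T cells. Cd86, a co-stimulatory ligand, was 783, 85.8 and 204 CPM. Il2ra, which encodes CD25, was 10.1, 3.84 and 3.86 CPM, and Tnfrsf8, which encodes CD30, 2.70, 0 and 2.28 CPM, both near the floor of the 2-hour library. So the EGR genes and Myc were high at 2 hours, whereas Nr4a1 and Cd86 were not.

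The signalling chain behind the receptor was lower at 2 hours in part. Of 16 genes 0 were higher and 6 lower past 2-fold, against 4.97% and 21.7% of all genes. The median was -0.53, below the -0.29 of all genes. Syk, the first kinase recruited to CD79, was 934 CPM in naive lungs, 334 CPM after 2 hours and 555 CPM after 3 days, a log2 ratio of 2 hours to naive of -1.46 (-1.67 to -1.30). Lyn, a Src family kinase, was 1723, 520.0 and 329.7 CPM, with -2.35 (-2.45 to -2.32) for 3 days to naive, and in T cells 31.9, 36.0 and 39.8 CPM. Both kinases were highest in the naive library. Blnk, the adaptor, was 394, 166 and 166 CPM. Plcg2, the phospholipase, was 293, 47.4 and 113 CPM. Blk and Pik3ap1 were the other members lower at 2 hours. The inhibitory receptors were not: Cd22 was 118, 122 and 191 CPM and Fcgr2b 73.9, 85.8 and 117 CPM. At 3 days 4 members were lower than in naive cells past 2-fold, Lyn, Blnk and Plcg2 as at 2 hours and Btk. Over all genes 12.6% were lower at 3 days.

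Many transcription factors of the B cell programme were lower in the transplant libraries. Of 16, 8 were lower at 2 hours and 6 at 3 days past 2-fold, against 21.7% and 12.6% of all genes. The number higher was 0 at either time, against 4.97% and 1.61% of all genes. Ebf1, which the rule used, was 4911 CPM in naive lungs, 1208 CPM after 2 hours and 1311 CPM after 3 days, log2 ratios of -2.01 (-2.12 to -1.93) and -1.90 (-1.94 to -1.87). Ikzf3 was 499, 84.5 and 188 CPM in kappa cells and 201, 63.3 and 78.3 CPM in T cells. Pax5, at 801, 214 and 448 CPM, was lower past 2-fold at 2 hours, and at 3 days its log2 ratio to naive was -0.82 (-0.91 to -0.76), while Spib was 125, 66.6 and 185 CPM. The group's sum had a log2 ratio of -1.91 in kappa cells and -2.27 in T cells.

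Gene length moved with these differences in both cell types. Among genes without an intron the median log2 ratio of 2 hours to naive was 0.56 in kappa cells and 0.46 in T cells, over 220 genes. Among 829 genes with more than 100 kb of introns it was -1.66 and -1.42, and at 3 days -1.30 and -1.15. Between 3 days and 2 hours, both counted by the same software version, it was 0.37 and 0.23. The lowest ratios are given next, among genes with naive CPM + 1 at least 4 times as high in kappa as in T cells. The intron lengths of these single genes are not given here. In naive lambda cells Kcnq5, Immp2l, Tmem163 and Agbl1 were 747, 953, 998 and 1295 CPM. Kcnq5, a potassium channel, was 823, 5.12 and 6.04 CPM. Immp2l, a mitochondrial protease, was 1037, 15.4 and 10.8 CPM. Tmem163, a zinc transporter, was 575, 23.1 and 26.3 CPM in kappa cells and 13.9, 1.74 and 1.94 CPM in T cells. All 3 were high in the naive library alone. Agbl1 was 300.2, 1.28 and 0.495 CPM, of which 47.8% of the naive UMIs lay in 10 cells. The part of intron counting in these differences was not tested.

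**Figure D4:**
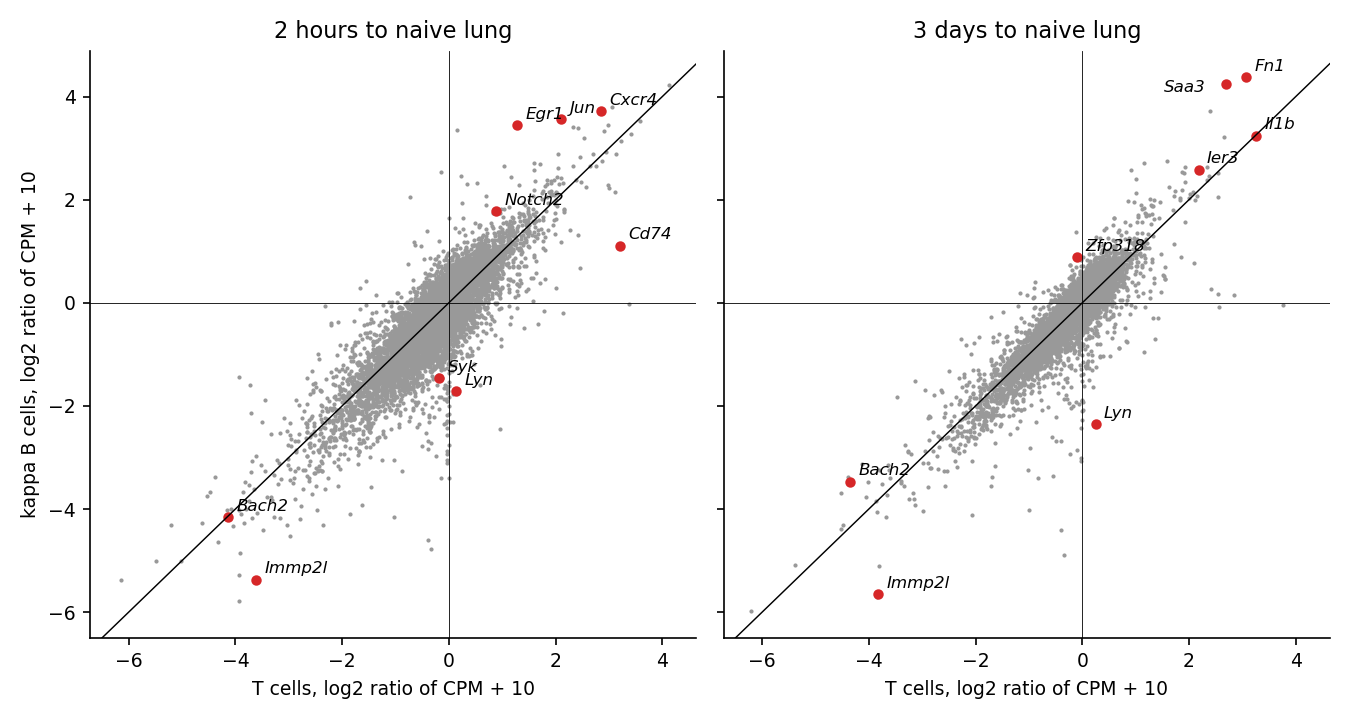
Log2 ratio of CPM + 10 of each of the 7888 genes in kappa B cells (vertical) against T cells of the same libraries (horizontal), for 2 hours to naive (left) and 3 days to naive (right), with named genes in red. The line marks equal ratios. Immp2l and Bach2 are low in both cell types, while Lyn and Syk lie below the line and Egr1 and Jun above it.

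Of 16 homing genes 4 were higher at 2 hours past 2-fold (Cxcr4, Ccr7, Klf2 and Rgs1), against 4.97% of all genes. The 4 that were lower (Ccr6, Itgb7, Itgal and Foxo1) are a share near the 21.7% of all genes. Ccr7, which guides cells to lymph nodes, was 457 CPM in naive lungs, 1069 CPM after 2 hours and 438 CPM after 3 days, a log2 ratio of 2 hours to naive of 1.21 (1.10 to 1.35). Cxcr5, which guides cells to follicles, was 185, 104 and 179 CPM, not past 2-fold. Ccr6, a receptor for CCL20, was 93.8, 21.8 and 76.1 CPM. Itgb7, an integrin chain, was 106, 19.2 and 93.6 CPM and in T cells 183, 61.0 and 185 CPM. The last 2 were lowest at 2 hours and close to the naive level at 3 days. At 3 days Rgs1, at 7.08, 46.1 and 35.4 CPM, was the member higher than in naive cells past 2-fold, and Foxo1 the member lower past 2-fold. Cxcr4 was at 0.58 (0.47 to 0.74) in that comparison.

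Heat-shock chaperones were higher at 2 hours in part. Of 11, 5 were higher past 2-fold and 0 lower, against 4.97% and 21.7% of all genes. Dnajb1 was 33.4 CPM in naive lungs, 451 CPM after 2 hours and 56.9 CPM after 3 days, and in T cells 42.7, 256 and 70.6 CPM. Hspa1b, the inducible HSP70, was 42.8, 330.4 and 75.9 CPM. Hspa8, the constitutive HSP70, was 304, 637 and 433 CPM, a log2 ratio of 1.04 (0.91 to 1.23), and 0.14 in T cells. At 3 days 0 of the 11 were past 2-fold from naive.

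Of 13 genes of MHC class II and antigen presentation, 1 was higher at 2 hours past 2-fold and 1, Cd86, was lower. Over all genes 4.97% were higher and 21.7% lower. Cd74, the invariant chain, was 9687 CPM in naive lungs, 20947 CPM after 2 hours and 9091 CPM after 3 days, a log2 ratio of 1.11 (1.08 to 1.14). H2-Aa was 4067, 6491 and 4579.9 CPM, whereas H2-Ab1, the partner chain of the same molecule, was 3178, 2281 and 3813 CPM. The chains of 1 class II molecule therefore went apart at 2 hours, neither past 2-fold. In T cells, which make little of it, Cd74 was 20.2, 268 and 169.5 CPM.

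Counts in the next groups stand against 4.97% higher and 21.7% lower of all genes at 2 hours, and 1.61% and 12.6% at 3 days. Of 10 survival genes 2, Pim1 and Pim2, were higher at 2 hours past 2-fold and 1, Traf3, was lower. Pim1, a survival kinase, was 194 CPM in naive lungs, 1016 CPM after 2 hours and 262 CPM after 3 days, and in T cells 342, 1529 and 461 CPM. Pim2, its relative, was 15.5, 42.3 and 14.5 CPM. Traf3, an adaptor that restrains survival signals, was 256, 15.4 and 42.0 CPM and in T cells 126, 12.2 and 23.4 CPM. Of 13 NF-kB genes 0 were higher at 2 hours and 2, Nfkb1 and Birc3, were lower. Nfkb1 was 403, 119 and 244 CPM in kappa cells and 306, 95.8 and 202 CPM in T cells. Birc3, an inhibitor of apoptosis, was lower in both transplant libraries, at 583, 193 and 246 CPM. Of 11 genes of the Toll-like receptor pathway 1, Cd14, was higher at 2 hours and 2, Traf6 and Traf3, were lower, and at 3 days Cd14 and Tlr2 were higher and the same 2 lower. Tlr4 was 7.08, 7.68 and 5.94 CPM, its adaptor gene Ticam1 4.05, 2.56 and 5.54 CPM, and Tlr3 0, 0 and 1.09 CPM, too low to compare at this depth. Myd88 was 9.44, 24.3 and 22.3 CPM, not past 2-fold. Cd14, the co-receptor of TLR4, was 4.05, 39.7 and 72.2 CPM, against 3.37, 49.3 and 48.8 CPM in T cells. Of 9 interferon response genes 1, Ifi203, was lower at 2 hours and 0 were past 2-fold at 3 days. Of 8 cell cycle genes 1, Tubb5, was higher at 2 hours. In each of these groups the share lower at 2 hours was under the 21.7% of all genes.

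Markers of B cell subsets are given next, B1 cells last. Their counts at 2 hours stand against 4.97% higher and 21.7% lower of all genes. The follicular group summed to 3180.5 CPM in naive lungs, 3016 CPM after 2 hours and 3321 CPM after 3 days, with 1 of 8 higher (Ccr7) and 1 lower (Cd55) at 2 hours and 0 past 2-fold at 3 days. Fcer2a, which encodes CD23, was 221, 175 and 230.4 CPM. The marginal zone group was 797, 788 and 1062 CPM and the germinal centre group 65.4, 64.0 and 46.7 CPM. Mzb1, of marginal zone and plasma cells, was 202, 306 and 196 CPM. Of 5 plasma cell genes 0 were past 2-fold in any of the 3 comparisons. Of 6 transitional genes 1, Cd93, was higher at 2 hours and 1, Ms4a4c, lower, and of 5 memory genes 1, Zbtb20, was lower.

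B1 cell markers were the subset group with the most members past 2-fold at 3 days. Of 8, 2 were higher at 2 hours than in naive cells (Bhlhe41 and Plscr1) and 0 lower, against 4.97% and 21.7% of all genes. At 3 days 4 were higher than in naive cells (Ahnak, S100a6, Anxa2 and Itgam) and 0 lower, against 1.61% and 12.6% of all genes, and the median was 0.90 in kappa cells and 0.58 in T cells. Markers of monocytes and macrophages were higher at 3 days in the same cells, 8 of 11 past 2-fold with a sum of 407 CPM in naive lungs and 1423 CPM at 3 days, as were 4 of 6 neutrophil markers, and their part in the B1 group was not tested. Itgam, an integrin chain that myeloid cells carry too, was 8.77, 2.56 and 79.4 CPM in kappa cells and 48.5 CPM in T cells at 3 days. S100a6, a calcium binding protein, was 64.8 CPM in naive lungs, 87.1 CPM after 2 hours and 225 CPM after 3 days, and in T cells 261, 279.8 and 399 CPM. Ahnak, a giant scaffold protein, was 142, 186 and 381 CPM and in T cells 215, 291 and 445 CPM. Both were higher in T cells than in kappa cells of every library. Cd5, which defines B1a cells, was 2.36, 3.84 and 2.08 CPM from 7, 3 and 21 UMIs, and in T cells 95.2, 54.6 and 102 CPM.

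Of the 8 genes taken for the largest ratio of 3 days to naive, 7 had their highest CPM at 3 days, all but Hist1h2bc. The 8 were taken among genes with CPM + 1 at 3 days at least 4 times as high in kappa as in T cells. That choice did not look at lambda cells, and it placed 3 days above naive. Itprip, an interactor of the inositol trisphosphate receptor, was 29.7 CPM in naive lungs, 26.9 CPM after 2 hours and 63.7 CPM after 3 days, a log2 ratio to naive of 0.89 (0.78 to 1.44), and in T cells 9.45, 6.39 and 13.2 CPM. It was seen in 521 kappa cells at 3 days, with 5.12% of its UMIs in 10 cells. Gm16014 was 1.69, 5.12 and 11.6 CPM, in 99 kappa cells at 3 days. Zfp318, a regulator of the splicing that yields IgD, was 102 CPM in naive lungs, 92.2 CPM after 2 hours and 196 CPM after 3 days, with log2 ratios of 0.88 (0.76 to 1.12) to naive and 1.01 (0.75 to 1.45) to 2 hours. In T cells it was 20.7, 10.5 and 18.6 CPM. It was highest at 3 days in kappa cells and not in T cells. In lambda cells Zfp318 was 108, 152 and 144 CPM, and so highest at 2 hours. Siglecg, an inhibitory lectin of B cells, was 157, 69.2 and 205 CPM. Lrrk2, a kinase, was 444, 58.9 and 181 CPM. Both were higher at 3 days than at 2 hours past 2-fold, with log2 ratios of 1.44 (1.18 to 1.99) and 1.47 (1.19 to 2.07). Notch2, the receptor that directs marginal zone cells, went the opposite way, with 221, 783 and 84.7 CPM, a log2 ratio of 3 days to 2 hours of -3.06 (-3.36 to -3.06) and -1.97 in T cells. The remaining genes with the largest ratios of 3 days to naive, apart from Hist1h2bc, rested on few cells: all 92 Mmrn1 UMIs and 76 of 89 Angpt2 UMIs at 3 days lay in 1 cell, and 70.9% of 454 Serpinb2 UMIs and 93.5% of 92 Adgrf5 UMIs in 10.

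Myeloid transcripts were higher at 3 days in kappa cells and in T cells alike. Of 11 monocyte and macrophage genes 8 were higher at 3 days than in naive kappa cells past 2-fold, against 1.61% of all genes. The group summed to 407, 457 and 1423 CPM in kappa cells and 585, 619 and 1385 CPM in T cells. The most abundant was Cst3 in the naive library (178 CPM) and at 2 hours (210.0 CPM), and Lyz2 at 3 days. Lyz2 was 56.3, 11.5 and 276 CPM in kappa cells, where the rule caps it, and 57.6, 26.1 and 264 CPM in T cells. Of 6 neutrophil genes 4 were higher, with sums of 129, 261 and 599 CPM and in T cells 83.2, 276 and 401 CPM. S100a9, their most abundant gene, was 60.4, 114 and 303 CPM, and Ly6g, their defining gene, 0, 0 and 0.396 CPM. Of the macrophage genes Csf1r, their defining receptor, was 0.675, 0 and 35.0 CPM and in T cells 46.0 CPM at 3 days. T cell markers summed to 31.4, 65.3 and 31.4 CPM with Cd3d, Cd3e and Cd3g at 0 by the rule, and NK cell markers to 199, 123 and 133 CPM. The 10 kappa cells with the most held 85.1%, 89.6% and 73.7% of the NK marker UMIs. For the T cell markers the shares in 10 cells were 50.5%, 76.5% and 23.0%. The part of these transcripts in the other differences was not tested.

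Ccl7, which draws monocytes, had 0 UMIs in the naive library and at 2 hours, and 90 UMIs at 3 days, 8.91 CPM (exact Poisson 7.16 to 11.0). In T cells it was 5.27 CPM at 3 days. Without thinning it was seen in 2.43% of kappa cells and 2.30% of T cells at 3 days, at median depths of 5033 and 8151 UMIs, and 63.3% of its UMIs lay in 10 cells. Among 500 UMIs per cell 5 kappa cells, 0.283% (0.0919% to 0.659%), and 1 T cell, 0.121% (0.00307% to 0.673%), held it. Ccl2, of the same family, had 2, 0 and 255 UMIs, or 25.2 CPM at 3 days against 17.7 CPM in T cells, and its shares among 500 UMIs were 1.02% (0.605% to 1.61%) and 0.484% (0.132% to 1.24%). Both chemokines were thus found in kappa and in T cells at 3 days, with intervals that overlapped at equal depth. Of 7 chemokine and cytokine genes compared 2, Il1b and Cxcl2, were higher at 2 hours than in naive kappa cells past 2-fold, and 4 at 3 days (Ccl3 and Ccl4 as well). Over all genes 4.97% and 1.61% were higher. The calls of Ccl3 and Ccl4 rested on few cells. At 3 days 68.1% of Ccl3 and 81.1% of Ccl4 UMIs lay in 10 cells, and 361 of 736 Ccl4 UMIs in 1. Il1b was 17.5, 192 and 251 CPM in kappa cells and 7.20, 102 and 155 CPM in T cells, and Cxcl2 12.5, 209 and 198 CPM and 6.75, 168 and 95.8 CPM. At 2 hours 73.3% of Il1b and 80.4% of Cxcl2 UMIs in kappa cells lay in 10 cells. Among 500 UMIs per cell at 2 hours Il1b was seen in 3.77% (2.58% to 5.31%) of kappa cells and 2.70% (1.88% to 3.75%) of T cells, and Cxcl2 in 3.41% and 3.42%. At 3 days the thinned shares of Il1b were 6.28% (5.20% to 7.52%) and 3.87% (2.66% to 5.43%), and those of Cxcl2 5.83% (4.78% to 7.03%) and 4.60% (3.28% to 6.26%). The intervals of kappa and T cells overlapped in each case. Without thinning Il1b was seen in 5.68% of kappa cells and 5.55% of T cells at 2 hours and in 40.6% and 44.1% at 3 days, so at 3 days the order of the cell types turned with the depth, as it did for Cxcl2 (44.3% and 46.0%). Fn1, a matrix gene of macrophages, was in 6.00% of kappa cells and 4.00% of T cells among 500 UMIs, with 56.6% of its kappa UMIs in 10 cells. The part of free RNA in these values was not tested.

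Kappa and lambda cells of the same library allowed a test, since each library gave 1 sum of each. UMIs were summed per library and light chain, light chain genes left out, and compared by edgeR's quasi-likelihood test with the library as a block and Benjamini-Hochberg adjustment over 6924 genes. The 3 libraries were of different conditions. The test pools its estimate of spread over genes, so p-values and SE do not measure a single gene's own spread over the libraries. Of 6924 genes 36 (0.520%) were higher and 47 (0.679%) lower in kappa cells, the 36 higher in 3 of 3 libraries each and 42 of the 47 lower in 3 of 3. The CPM here leave out light chain genes and differ slightly from those above. Much rested on the naive library. Without it edgeR called 2 genes higher and 7 lower, and of the genes named below Vps37b (adjusted p = 0.023), Ighm (0.00685), Bst2 (0.00144) and Mpeg1 (0.028) stayed under the threshold, whereas the adjusted p of the others lay between 0.0544 (H2-Aa) and 0.800 (Pde4d).

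Genes higher in kappa cells included those of antigen presentation. Vps37b, of the endosomal sorting complex, was 1109 CPM in kappa and 509.7 CPM in lambda cells of the naive library, 566 and 391 CPM at 2 hours, and 787 and 464 CPM at 3 days. The log2 difference was 0.87 ± 0.10 (SE, n = 3 libraries, edgeR adjusted p = 7.78e-07). Satb1, a chromatin organiser, was 1993, 1218 and 889 CPM in kappa and 1266, 1078 and 576 CPM in lambda cells (0.55 ± 0.08, edgeR adjusted p = 3.50e-05). H2-Aa was 4095, 6534 and 4609.8 CPM in kappa and 3022, 5685 and 4017 CPM in lambda cells (0.31 ± 0.05, edgeR adjusted p = 3.23e-04). Cd74, H2-Ab1 and H2-Eb1 were also higher, so that 4 of 13 genes of the class II group were higher and 0 lower, with a median of 0.26 against 0.02 over all genes. Without the 2-hour library the adjusted p of Cd74 was 0.195. Under the stricter light chain limit none of the 4 passed, although the log2 differences were larger: H2-Aa was at 0.61 (edgeR adjusted p = 0.126), H2-Ab1 at 0.48 (0.473), Cd74 at 0.47 (0.547) and H2-Eb1 at 0.42 (0.631). Among follicular markers Cr2 and Fcer2a, the genes of CD21 and CD23, were higher, 2 of 8, with an adjusted p of Fcer2a of 0.473 without the 3-day library. Ccl5, at 1.47 ± 0.24, was 214, 376 and 119 CPM in kappa and 26.3, 73.8 and 94.0 CPM in lambda cells, but 84.2% of its naive kappa UMIs lay in 5 cells, and its adjusted p with called doublets removed was 0.0657. Under the stricter light chain limit the difference of Ccl5 fell to 0.38 (edgeR adjusted p = 0.944). Pde4d, a cyclic AMP phosphodiesterase, had the remaining place among the first 5 (1.89 ± 0.34, edgeR adjusted p = 8.80e-04).

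Genes lower in kappa cells included Ighm and the transitional marker Cd24a. Ighm was 2242, 1469.7 and 2667 CPM in kappa and 3864, 1855 and 3666 CPM in lambda cells, a log2 difference of -0.51 ± 0.06 (edgeR adjusted p = 1.57e-06). Serinc5, a membrane protein, was 40.1, 27.1 and 12.8 CPM in kappa and 240.1, 39.7 and 38.6 CPM in lambda cells (-1.93 ± 0.26, edgeR adjusted p = 4.35e-06, and 0.566 without the naive library). Of its UMIs in lambda cells 58.9% of 73 in the naive library and 73.9% of 23 at 3 days lay in 5 cells. Ifi30, the lysosomal thiol reductase, was 155, 82.5 and 200.1 CPM in kappa and 375, 125 and 368 CPM in lambda cells (-0.96 ± 0.14). Cd24a, high on transitional cells, was 157, 258 and 199 CPM in kappa and 378, 426 and 255 CPM in lambda cells, at -0.73 (edgeR adjusted p = 0.00153, and 0.465 without the naive library). Bhlhe41 was 10.9, 104 and 15.8 CPM in kappa and 13.2, 295 and 30.2 CPM in lambda cells, at -1.12 (edgeR adjusted p = 0.0137, and 0.834 without the 2-hour library). Bst2 and Mpeg1 rested on few lambda cells: 89.3% and 78.1% of their UMIs in lambda cells at 3 days lay in 5 cells, and without the 3-day library the adjusted p of Bst2 was 0.862.

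Counts in the other groups follow, against 0.520% higher and 0.679% lower over all genes. Of 20 immediate-early genes 1, Junb, was higher in kappa cells and 0 were lower, and of 16 homing genes and 11 heat-shock genes 0 passed in either direction. Of 8 B1 markers 2, Ahnak and Bhlhe41, were lower in kappa cells, and of 6 transitional markers 2, Cd24a and Ighm. Among 6 marginal zone markers Cr2 was higher, and Mzb1 and Plac8 were lower. Mzb1 was also lower among 4 plasma cell markers. Higher were 2 of 15 genes induced through the receptor, Ccl4 and Nr4a2, and 2 of 6 chemokine and cytokine genes, Ccl4 and Ccl5. Rel was higher among 13 NF-kB genes and Spib lower among 16 transcription factors. Bst2 was lower among 8 interferon genes and Cd38 among 4 memory markers. Of 16 receptor signalling genes 1, Cr2, was higher and 1, Cd79b, lower. Cd79b was in the rule that chose the cells, so its call does not stand apart from that choice. Of 7 monocyte and macrophage markers 0 were higher and 2, Ctsl and Tyrobp, were lower in kappa cells, with a median of -0.70 against 0.02 over all genes. Tyrobp, at -0.72, was at -0.16 without the 3-day library (edgeR adjusted p = 0.948). Under the stricter light chain limit it was at -0.07 (edgeR adjusted p = 0.995). At 3 days 72.7% of Ctsl and 79.2% of Tyrobp UMIs in lambda cells lay in 5 cells, and the part of these markers in the other differences was not tested. Of 4 neutrophil and 3 NK cell markers 0 passed in either direction. At 49, 190 and 96 lambda cells the test has limited reach, and a gene that missed the threshold may still differ.

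**Figure D5:**
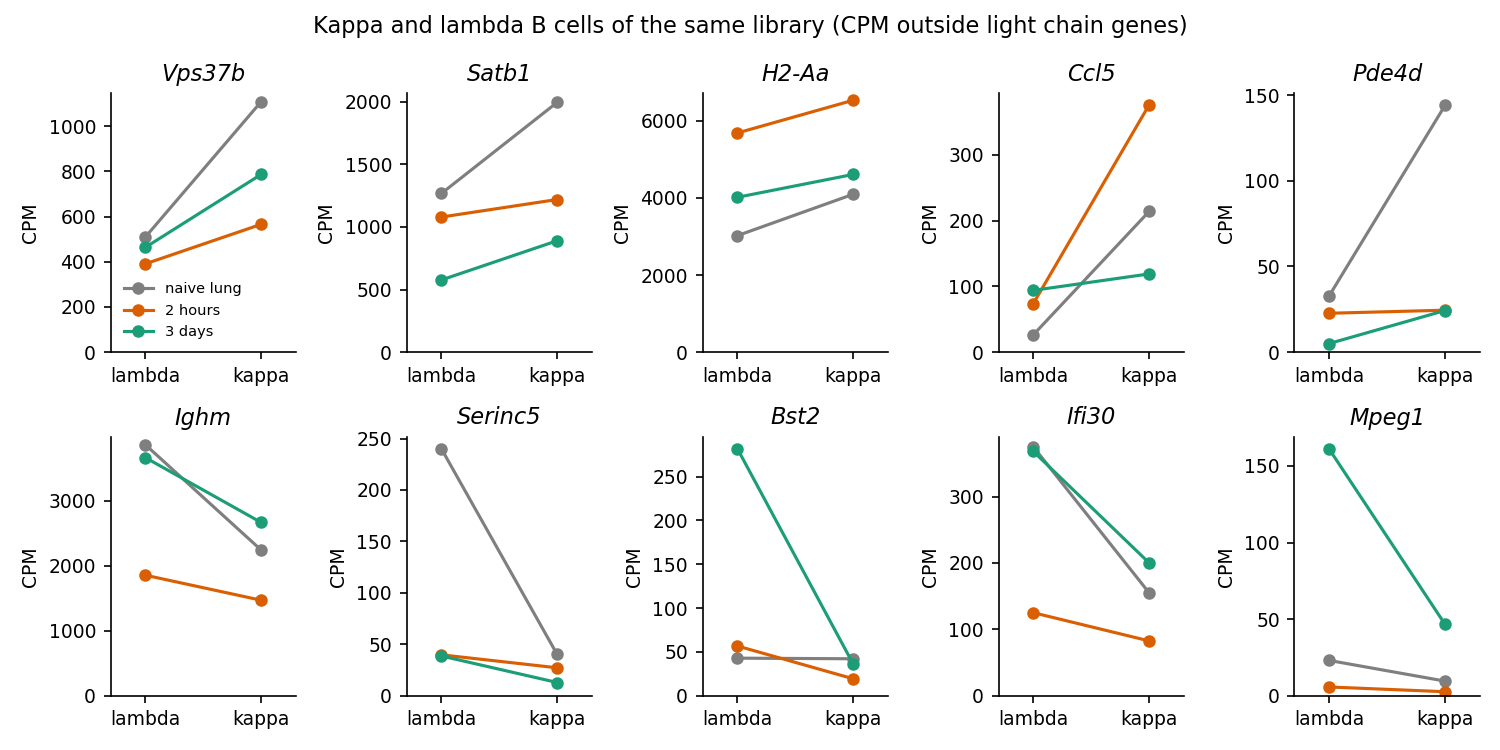
CPM outside light chain genes of 10 genes in lambda (left) and kappa (right) B cells, with a line joining the sums of each library. Vps37b, Satb1, H2-Aa, Ccl5 and Pde4d are higher in kappa cells of all 3 libraries and Ighm, Serinc5, Bst2, Ifi30 and Mpeg1 are lower, with the Bst2 and Mpeg1 gap widest at 3 days.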

How the data were processed

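The deposited values were unnormalized UMI counts per gene and droplet called as a cell, for 32285 genes and, at 2 hours and 3 days, 277 antibody features. Per the file headers the authors counted with Cell Ranger 7.1.0 (naive) and 6.0.0 (transplants), and the submitters' processing notes name Cell Ranger 6, Seurat 4 and the mm10 genome build. Whether intronic reads were counted is not stated in them. The labels name both a 3′ and a 5′ kit, while the methods of the study name a 3′ kit. Total gene UMIs were 28538529, 10749100 and 70750470 in 2921, 10328 and 9016 barcodes.

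Cells were filtered and classed by the rule given above. The members of the group and all 27 gene lists (308 genes) were chosen with earlier results of these data known, so no list is independent support. Counts were summed per library and class in Python 3.11.15 with numpy 2.4.6, pandas 2.3.3 and scipy 1.17.1. Doublets were called per library with Scrublet in scanpy 1.11.5 and kept, except in an alternative. Between libraries, where each condition has 1, no test was made, and intervals (exact binomial for ratios, Clopper-Pearson for shares, Poisson for sums, all at 95%) cover counting error only. Genes averaging 10 CPM or more were compared, with 10 CPM added before the log2 ratio. Kappa against lambda used edgeR 4.0.16 in R 4.3.3 (TMM, filterByExpr, library as a block, adjusted p under 0.05), with DESeq2 1.42.0 as an alternative. Both steps were tested on simulated data: edgeR called 65.3% of 2-fold and 99% of 4-fold changes among 6854 genes, with 8 false calls among 168. That simulation gave every gene the same dispersion and every library the same difference. It does not show how the test behaves where differences vary between libraries. Where stated, shares of cells with a UMI come from 500 UMIs drawn per cell, which left out shallower cells (822 of 845 kappa cells were used at 2 hours). The others are unthinned and move with depth.

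Genes named were the members of the lists, up to 8 per comparison and direction with the largest log2 ratio among genes with at least 50 kappa UMIs and a CPM + 1 at least 4 times that of T cells in the higher library, the 5 smallest p per direction for kappa against lambda, the 5 Igkv genes leading in most cells per library, the 10 most abundant genes per library outside ribosomal and mitochondrial genes, and molecules the study examined in B cells. Not all genes taken were described. Positions are from GENCODE vM21 (GRCm38) and promoters from RefSeq (GRCm38.p6). Alternatives were pseudocount 1, no low-count filter, 2 other scalings, doublets removed, stricter light chain and marker limits, the mean over cells, 500 UMIs per cell, and subtraction of the log2 ratio of T cells. Flow cytometry and the other experiments of the study were not analysed here.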

Additional observations from a re-analysis of the deposited data

How the results depend on the processing

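No paired analysis was possible because each condition has 1 library, all labelled replicate 1; this holds for comparisons between conditions, while kappa and lambda cells were compared with the library as a block. Of 54 gene counts between libraries under the alternatives, 38 stayed within 1.5 times the main count and 16 did not. With 1 CPM added, 609 genes were higher at 2 hours than in naive cells, 261 higher at 3 days than in naive cells, and 1104 higher and 434 lower at 3 days than at 2 hours. Median-ratio scaling gave 788 higher at 2 hours than in naive cells, and 240 higher and 477 lower at 3 days than at 2 hours. CPM outside ribosomal, mitochondrial and immunoglobulin genes gave 206 higher at 3 days than in naive cells, and 500 UMIs per cell gave 265. The stricter light chain limit gave 434 lower at 3 days than at 2 hours. After subtracting the log2 ratio of T cells, 36 were higher and 217 lower for 2 hours to naive, 18 and 103 for 3 days to naive, and 70 and 45 for 3 days to 2 hours. That subtraction also reversed the 3 days to naive ratio of the immediate-early sum to -0.08, of the interferon sum to 0.07 and of the MHC class II sum to -2.19, and the 2 hours to naive ratio of the MHC class II sum to -1.54, where T cells start near 0. Of 72 list sums 37 moved by less than their interval, 31 by more in the same direction, and 4 were those reversed. The causes were not tested.

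The kappa share moved in 3 of 15 values, to 85.5% (naive) and 91.9% (3 days) with each B cell thinned to 500 UMIs, chosen after seeing the data, and to 92.3% (2 hours) under the stricter light chain limit. For kappa against lambda, DESeq2 called 8 genes higher and 8 lower in kappa cells over 1606 genes given an adjusted p, 15 of the 16 shared with edgeR. Without a filter 77 were higher, and the stricter light chain limit left 7 higher and 16 lower. Without the library block edgeR called 0 and 0, with 29 genes at an unadjusted p under 0.05 against 580 with it. DESeq2 was run with the block only. Leaving out 1 library at a time gave 2 to 52 genes higher and 7 to 64 lower, the lowest counts without the naive library, the highest without the 2-hour library. Counts with DESeq2 size factors or with called doublets removed stayed within 1.5 times. The low depth of the 2-hour library, 780816 kappa UMIs, limits every value that rests on it.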
